A study of Mus musculus with 5 samples.

Results

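Cytosolic ribosomal protein genes were examined in 5 samples of mouse bone marrow cells positive for FLT3 and CD11b, which the labels name dendritic cell progenitors. Members were probe sets whose platform annotation gives exactly 1 gene symbol, made of Rpl or Rps and a number with an optional letter or an x or l ending, or Rplp0, Rplp1, Rplp2 or Rpsa. S6 kinase genes were left out. The rule found 47 of 12422 non-control probe sets, for 33 genes: 21 probe sets for 16 genes of the large subunit and 26 probe sets for 17 genes of the small subunit. A further 38 probe sets list such a symbol together with other symbols and are described only as an unnamed group.

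Total RNA of each sample was hybridised to 1 single-colour array. The labels number the samples 1 to 5 and give no treatment, genotype, age, animal or pool, so all 5 form 1 group without a contrast between conditions. Nothing says that they came from separate animals, so p-values measure only the spread between these samples, which may be technical. Signal of the 2 sorted-for genes exceeded the array median on every array, with Flt3 at 745 ± 463 and Itgam at 477 ± 215 (SD, n = 5). Of genes listed as cell type markers, 7 of 7 neutrophil genes and 4 of 4 monocyte and macrophage genes exceeded the median on every array. The counts were 0 of 3 B cell, 0 of 3 T cell, 0 of 3 erythroid and 0 of 5 mature dendritic cell genes. The share of all named genes was 44.5%. Some genes of the lists with a count of 0 exceeded the median on some arrays. Hba-a1, Klf1, Ms4a1, Cd86 and Itgax did so on 3, so these counts do not show that such cells were absent.

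The ribosome is built from ribosomal RNA and many small proteins, most of them present in a single copy per subunit, and the mRNAs of these proteins are among the most abundant in dividing cells. These mRNAs begin with a run of pyrimidines at the cap, the terminal oligopyrimidine tract, through which the mTOR kinase and the RNA-binding protein LARP1 control their translation. In humans, loss of a copy of one of several ribosomal protein genes causes Diamond-Blackfan anaemia, a failure of red cell formation in the bone marrow.

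Signals are array intensities, rescaled so that every array has its median at 103.4. An intensity depends on the probes as well as on the transcript, so different signals of 2 probe sets do not measure different amounts of mRNA. The values came without a detection call, and a signal under the median does not show that a transcript is absent.

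Ribosomal protein probe sets were either among the brightest on the arrays or near and under the array median. Of 47 members, 22 (46.8%) exceeded the array median on all 5 arrays, against 36.7% of all non-control probe sets. Another 12 exceeded it on 1 to 4 arrays and 13 on none. Sorted by mean signal, the members left a gap of 4.76-fold between Rpl13a at 1632 and Rps27 at 343, with 21 probe sets above the gap and 26 below it. Of the 21, 15 had a mean of at least 5000 and 9 of at least 10000.

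The contrast with the other probe sets grew with the limit. On all 5 arrays, 23 members (48.9%) exceeded the 40th percentile (against 42.9% of all non-control probe sets) and 21 (44.7%) the 75th percentile (against 17.4%). On at least 3 of the 5 arrays, 28 members (59.6%) exceeded the median (against 48.9%). Members held 3.28, 5.46, 4.15, 4.95 and 4.74% of the summed signal in samples 1 to 5, while making up 0.378% of the probe sets.

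**Figure D1:**
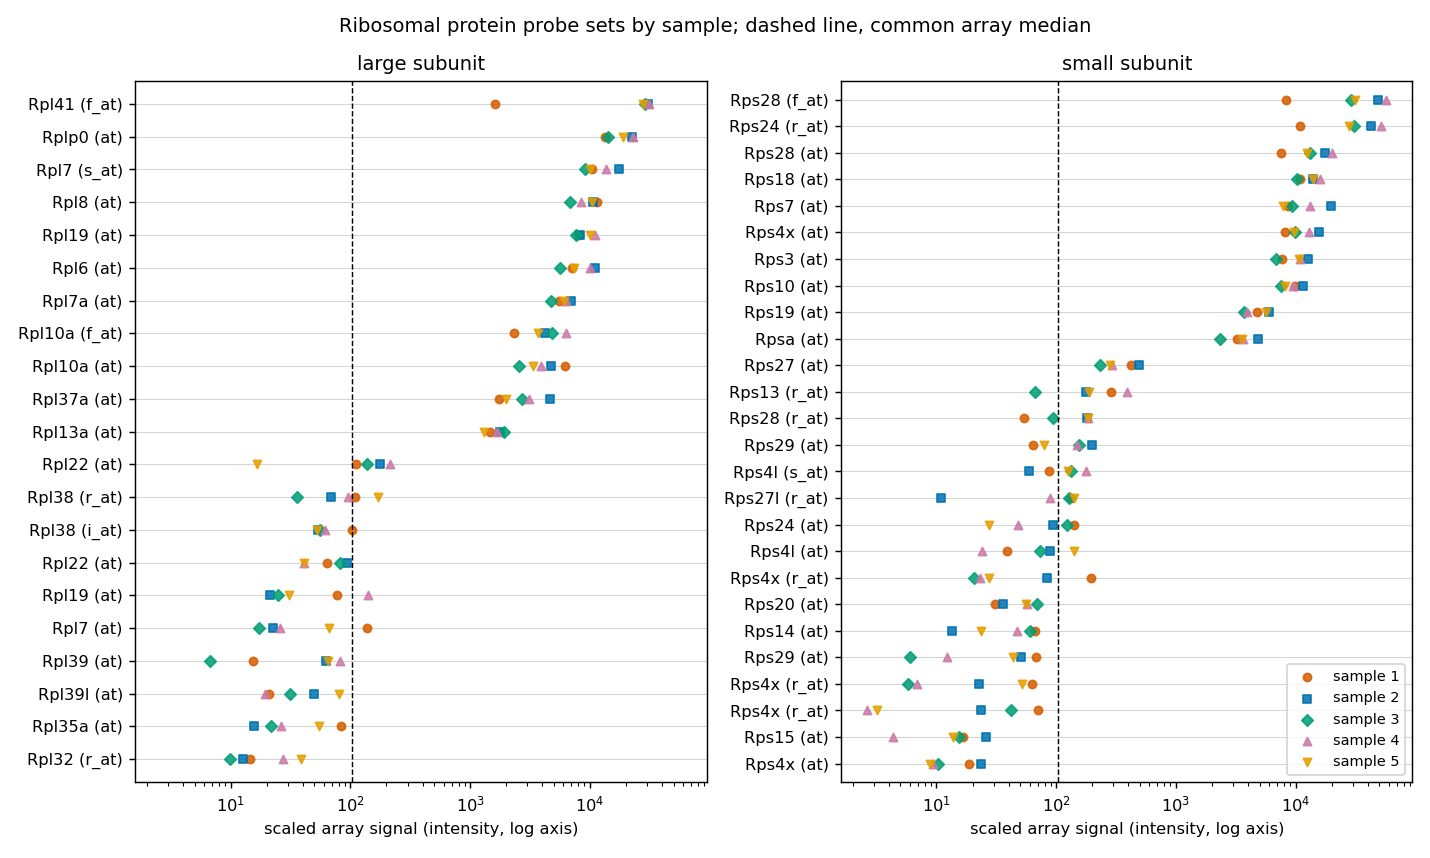
Scaled array signal (intensity, log axis) of the 47 ribosomal protein probe sets, large subunit left and small subunit right, sorted by mean; each point is 1 sample, suffixes are in brackets and the dashed line is the common median of 103.4. The upper 21 probe sets have mean signals of 1632 and more, and the lower 26 of 343 and less.

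Counted by gene, 20 of 33 had at least 1 probe set above the median on all 5 arrays, 10 in each subunit. The count was 19 without 97696_r_at, a probe set whose naming as Rps24 is uncertain. Among all 8251 named genes, each represented by 1 probe set, the share was 44.5%. The other 13 genes had no such probe set, and 9 of them were represented by a single one. Rplp1, Rplp2, Rps6, Rpl5, Rpl11 and Rpl3 had no member probe set and were not analysed here.

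The terminal oligopyrimidine tract is the shared feature of these mRNAs, so the bases around annotated starts are shown for 9 genes. RefSeq (GRCm38.p6) starts were matched for 26 of the 33 genes. All starts on a single chromosome had been left out before matching, for members and other genes alike. Each window has 15 bases before the start and 15 from it on, read 5′ to 3′ on the gene's strand. Capitals mark the pyrimidine word CTTTC or CTTCC, which can overlap, as in Rps10. The first 5 genes have a member above the median on every array and hold a word, Rpl38 holds one without such a member, and the last 3 windows hold none. The windows are chr2:26910792-26910821 (plus strand) for Rpl7a, chr17:27635230-27635259 (minus strand) for Rps10, chr17:33955651-33955680 (minus strand) for Rps18, chr7:45128731-45128760 (minus strand) for Rpl13a, chr3:90213634-90213663 (minus strand) for Rps27, chr11:114668565-114668594 (plus strand) for Rpl38, chr5:115559452-115559481 (plus strand) for Rplp0, chr10:128549154-128549183 (minus strand) for Rpl41 and chr10:80292416-80292445 (plus strand) for Rps15.
Rpl7a: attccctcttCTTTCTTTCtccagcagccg
Rps10: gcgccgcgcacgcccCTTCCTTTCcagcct
Rps18: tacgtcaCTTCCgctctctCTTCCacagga
Rpl13a: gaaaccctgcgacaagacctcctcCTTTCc
Rps27: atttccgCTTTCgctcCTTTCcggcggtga
Rpl38: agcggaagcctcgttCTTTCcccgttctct
Rplp0: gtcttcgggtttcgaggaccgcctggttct
Rpl41: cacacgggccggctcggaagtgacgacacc
Rps15: cccggcagagctcgcgataactgcgcaagc

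In Rps10 and Rpl38 a word begins at the annotated start itself. In Rpl13a it begins 9 bases after the start, and in the other member genes with a word the first begins before it. The words searched, CTTTC and CTTCC and also the word CTTTT, were chosen after windows had been seen. At least 1 of them was on the sense strand in 10 of 26 member genes (38.5%), against 15.1% of 27025 genes, and on the opposite strand in 3 (11.5%), against 15.1% of all. On the sense strand CTTTC was in 7 member genes (26.9%, against 4.76% of all genes), CTTCC in 5 (19.2%, against 7.83% of all) and CTTTT in 0 (against 3.68% of all). The words stood in 7 of 18 genes with a probe set above the median on every array and in 3 of 8 without one. A match describes these letters only and is not evidence of a tract.

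Over the 300 bases of the RefSeq promoter, which overlap these windows, the core CCGGAAG of ETS factor sites was on the sense strand in 7 of 26 member genes (26.9%) and on the opposite strand in 4 (15.4%), against 5.395% of all genes on each strand. The core AAGATGGC of YY1 sites was in 2 on each strand (7.69%), against 1.98% of all genes on the sense strand and 1.23% on the other.

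The highest signals of the large subunit were those of Rpl41, which encodes a very short and basic protein, and Rplp0, the base of the stalk that recruits translation factors. Rpl41 (100213_f_at) had 1601, 30444, 28862, 31178 and 27881 in samples 1 to 5. Sample 1 lay far below the others, which were within a narrow range: the SD of log2 signal was 1.88 over 5 samples and 0.07 without sample 1. Rplp0 (101213_at) had 13238, 22518, 14138, 23014 and 18844, with samples 2 and 4 high and samples 1 and 3 low.

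Rpl7 (97695_s_at) had 10393, 17359.7, 9183, 13514 and 9928 in samples 1 to 5, highest in sample 2. This probe set shares its listed source sequence with one named Rps24, as described below. Rpl8 (96575_at), a protein next to the peptidyl transferase centre, had 11525, 10697, 6842, 8435 and 10497. Here sample 1 was highest and sample 3 lowest. Rpl19 (97483_at) was more even, at 8122, 8199, 7605, 11012 and 10082.

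In the small subunit, Rps28, a component near the mRNA exit, and Rps24, a Diamond-Blackfan anaemia gene in humans, had the highest signals. The f_at probe set of Rps28 (98085_f_at) had 8289.9, 48978, 29032, 57261 and 31101 in samples 1 to 5. Its plain probe set (100758_at) had 7515, 17491, 13136, 19945 and 12401. Both put sample 1 lowest and sample 4 highest, and they differ in order only for samples 3 and 5. Rps24 (97696_r_at) had 10762, 42807, 30477, 51830.1 and 27837, again lowest in sample 1 and highest in sample 4. The annotation lists the same source sequence for this probe set as for 97695_s_at of Rpl7, so its gene name is uncertain. The shared source alone does not say which of the names is right. Counts given without 97696_r_at keep 97695_s_at as Rpl7.

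Rps18 (98333_at), a protein of the small subunit head, had 10919, 14066, 10317, 16020.0 and 14020.2 in samples 1 to 5. Rps7 (101212_at), which can bind the p53 regulator MDM2, had 8593, 19551, 9298, 13208 and 7895. Sample 2 was well above the rest for Rps7, while the samples of Rps18 were close together.

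Sample 1 differed from the other arrays in its brightest probe sets. Rplp0 had the highest deposited value on that array, 50124, whereas on the others it was S100a8, a calcium-binding protein of granulocytes, at 31063 to 52734. Scaling multiplied sample 1 by 0.264 and the others by 1.27 to 1.56, so that the highest scaled signal was 13238 in sample 1 and 41773 to 82007 in the others. Of the 124 brightest probe sets of each array, 15, 15, 13, 14 and 15 were members in samples 1 to 5. Rpl41 ranked at the 95.8 percentile of sample 1, below its place on every other array, and Rps24 (97696_r_at) at the 99.8 percentile. The part of the lower range of scaled signals on this array in the low values of sample 1 was not tested.

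**Figure D2:**
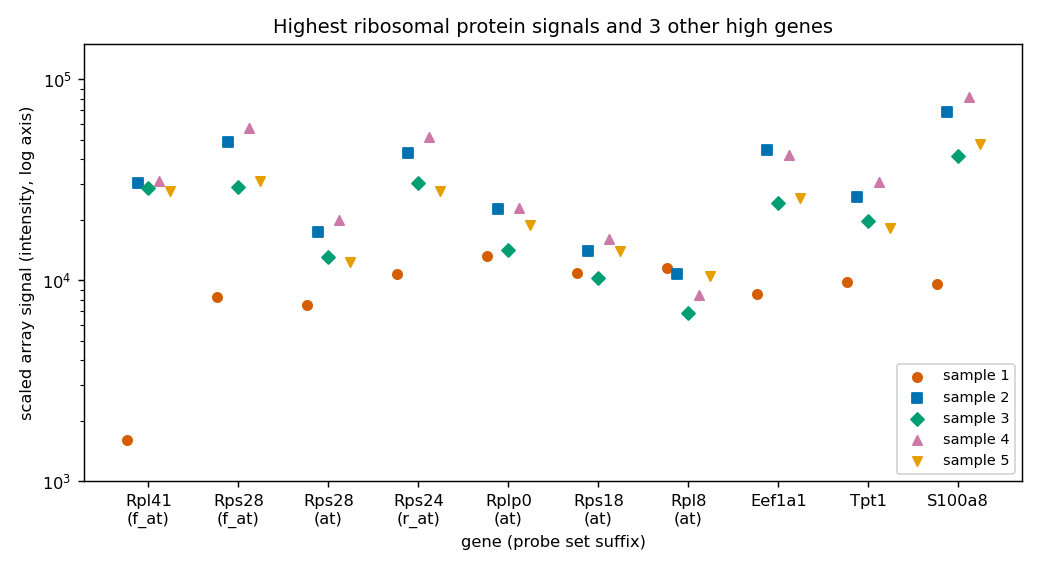
Scaled array signal (intensity, log axis) in samples 1 to 5 for 7 bright ribosomal protein probe sets and for Eef1a1, Tpt1 and S100a8; each point is 1 sample. Sample 1 is the lowest point in 8 of the 10 columns, and for Rpl41 it is at 1601 against 27881 to 31178.

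Members with roles outside the ribosome or in disease were bright, intermediate or low. Rpsa, also known as the laminin receptor, had 3219, 4831, 2345, 3641 and 3539.6 in samples 1 to 5, highest in sample 2 and lowest in sample 3. Rps19, the gene most often mutated in Diamond-Blackfan anaemia, had 4792, 6021, 3695, 3923 and 5646. Rps14, whose loss contributes to the anaemia of a human myelodysplastic syndrome, had 66.6, 13.5, 60.4, 47.3 and 23.5 and was under the median on every array.

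The paralogs Rps27 and Rps27l lay below the gap. Rps27 had 418, 491, 232, 293 and 279.9 in samples 1 to 5, above the median on all arrays. Rps27l, a p53 target, had 133, 10.95, 127, 88.02 and 142, above the median in 3 samples and lowest in sample 2.

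The 4 dimmest probe sets of the large subunit belonged to 4 genes and stayed under the median on every array. Rpl32 had 14.5, 12.8, 9.95, 27.4 and 38.7 in samples 1 to 5. Rpl35a, a Diamond-Blackfan anaemia gene in humans, had 83.5, 15.6, 21.9, 26.1 and 54.6. Rpl39, a protein of the exit tunnel, had 15.4, 62.7, 6.72, 81.5 and 65.04, and its paralog Rpl39l had 21.05, 49.6, 31.6, 19.4 and 80.2. The highest sample differed among the 4, being sample 5 for Rpl32 and Rpl39l, sample 1 for Rpl35a and sample 4 for Rpl39. In the small subunit the dimmest were 3 probe sets of Rps4x and that of Rps15, a protein of the subunit head, at 16.8, 26.03, 15.5, 4.35 and 13.7. The 25 members not above the median on every array had mean signals of 14.1 to 222, with a median of 58.6.

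Probe sets annotated to the same gene could lie on different sides of the array median. Of 10 genes with several probe sets, 5 had them on different sides of the limit, 4 had none above the median on every array and 1, Rpl10a, had both above it. Without 97696_r_at, whose naming as Rps24 is uncertain, the count was 4 of 9. The same share over all genes with several probe sets was not computed, so no trait of ribosomal protein genes is shown. For Rps4x, the X-linked form of S4, 100780_at had 8207, 15708, 9801, 12909 and 9613 in samples 1 to 5. The 4 other Rps4x probe sets had means of 14.1 to 69.7, and no ratio is given, since the dimmest lay under the floor of 30.0 on every array.

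The dimmest probe set of each of the other 4 genes had a mean of 86.3 (Rps24), 140.1 (Rps28), 54.2 (Rpl7) and 58.6 (Rpl19). In each of the 5 genes every sample of the brightest probe set lay above every sample of the dimmest.

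Rpl10a had 2319, 4257, 4842, 6287 and 3668 on its f_at probe set in samples 1 to 5, and 6169.5, 4691, 2537, 3940.3 and 3372 on its plain one. The means, 4275 and 4142, were close, but sample 1 was lowest on the first and highest on the second. For this gene the order of the samples thus depended on the probe set.

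**Figure D3:**
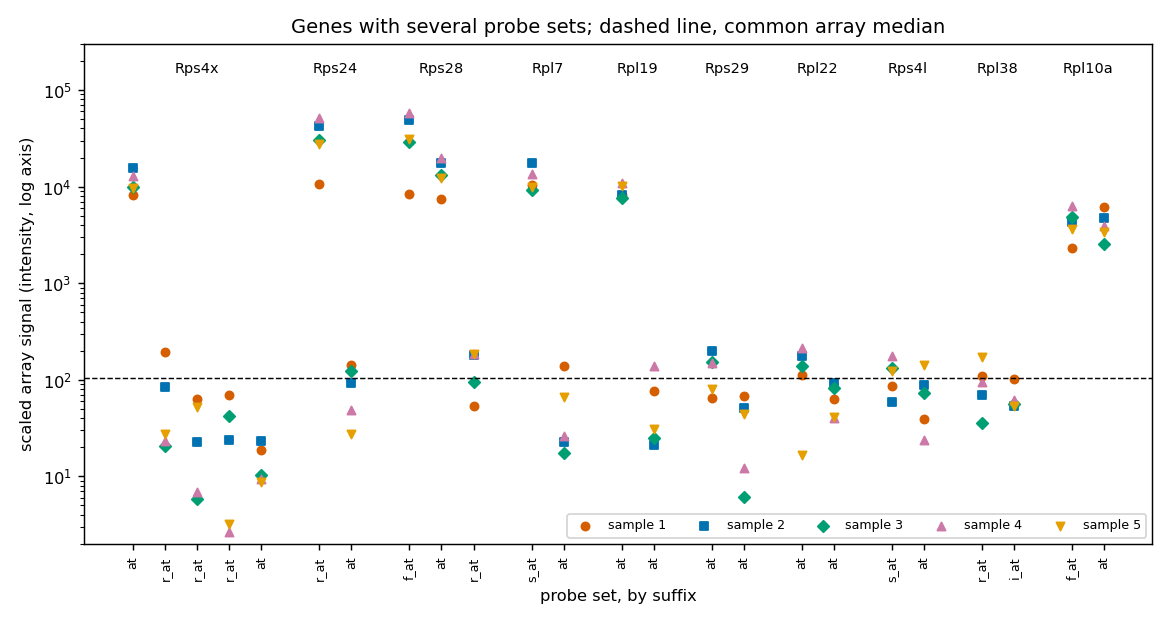
Scaled array signal (intensity, log axis) of every probe set of the 10 genes that have several, ordered by the ratio between the highest and lowest mean; each point is 1 sample and the dashed line is the common median. Means of Rps4x run between 14.1 and 11248, whereas those of Rpl10a are 4275 and 4142.

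The suffix of a probe set records its design: a plain at marks probes unique to 1 transcript, f_at a family of similar sequences, s_at several transcripts that share sequence, r_at relaxed selection rules and i_at fewer probes than usual. Of 32 plain members 17 (53.1%) were above the median on all 5 arrays, against 38.97% of all plain probe sets. Of the 15 others 5 were (33.3%), against 28.8% of all probe sets with such a suffix. These 5 were 3 of 3 f_at members, 1 of 2 s_at and 1 of 9 r_at, with 0 of 1 i_at. The median level of plain members lay 2.75 log2 units above that of the other 15, and over all non-control probe sets the plain ones lay 0.54 higher. The difference of members rests on the gap, with 16 of 32 plain members and 5 of the 15 others above it. Its sign turned among members above the median on every array, as given in the closing section.

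Plain members held 2.54, 2.98, 2.15, 2.46 and 2.68% of the summed signal in samples 1 to 5. The 15 others held 0.747, 2.48, 2.01, 2.50 and 2.05%. Sample 1 was far below the rest in the second share and within their range in the first.

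The median level of the large subunit exceeded that of the small by 3.15, 3.31, 3.90, 3.21 and 3.01 log2 units in samples 1 to 5. These differences rest on the side of the gap on which each median falls, with 11 of 21 probe sets of the large subunit above it and 10 of 26 of the small. Among the 22 members above the median on every array the differences had the opposite sign, at -0.41, -0.78, -0.72, -0.61 and -0.37. Neither subunit was shown to have the higher signal.

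Of the 38 probe sets with several symbols, 29 (76.3%) were above the median on all 5 arrays, against 36.7% of all non-control probe sets, and the median of their mean signals was 7932. Between 18 and 20 of them were among the 124 brightest probe sets of an array. Their signal cannot be given to 1 gene.

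Members above the median on every array are called bright below and include Rps27. Between samples, most of them lay above their own 5-sample mean in samples 2 and 4 and below it in samples 1 and 3. Sample 5 was split, with 10 above and 12 below. Correlations between members were not computed. A deviation is the log2 signal minus the probe set's own mean over the 5 samples, with signals under 30.0 (25th percentile) first raised to that value. The median deviation of the 47 members was -0.09, 0.28, -0.25, 0.10 and 0.00 in samples 1 to 5, against -0.01, -0.01, -0.02, 0.01 and -0.06 for all non-control probe sets. Members above their own mean numbered 19, 31, 15, 28 and 23 of 47, against 44.8, 44.1, 43.1, 50.7 and 39.3% of all probe sets. Deviations of a probe set sum to 0, so the samples are not separate findings.

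Of the 22 bright members, 20 (90.9%) had a higher signal in sample 2 than in sample 3, against 56.5% of the brightest 10% of probe sets and 52% of all. In sample 4 against sample 3, 21 of 22 (95.5%) were higher, against 78.3% of the brightest 10% and 57.6% of all. The median deviations of the 22 were -0.21, 0.40, -0.30, 0.23 and -0.08 in samples 1 to 5. These pairs join the samples with the highest and lowest medians, so their counts are not separate findings. The highest sample was sample 2 for 11 members and sample 4 for 8. The lowest was sample 3 for 12 and sample 1 for 8. The 25 dimmer members gave medians of 0.36, -0.07, -0.07, -0.03 and 0.05.

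Bright probe sets as a whole also deviated. The brightest 10% of all probe sets had medians of -0.18, 0.08, 0.02, 0.31 and -0.17. The 22 bright members deviated about as far as these in samples 1 and 4 and further in samples 2 and 3, which was not tested. The sets were not matched on signal: the median of mean signals was 9469 for the 22 and 1502 for the brightest 10%. The part of signal level in this difference and in the counts above was not tested. After quantile normalization, which gives every array the same distribution, the 47 members were at 0.13, 0.095, -0.17, -0.12 and 0.08 in samples 1 to 5. For the 47, the signs in samples 1 and 4 were thereby turned, and those in samples 2 and 3 were not. The same values were not computed for the 22 bright members alone.

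Measures of RNA and cell content also differed between samples. The ratio of 3′ to 5′ signal was 1.08, 3.003, 4.15, 5.20 and 2.55 for the actin control in samples 1 to 5. It was 0.896, 1.06, 4.52, 3.42 and 2.01 for the Gapdh control, and both were lowest in sample 1. The summed signal of the 7 neutrophil markers was 54742, 156717, 113036, 229081 and 145175, lowest in sample 1 and highest in sample 4. Their median deviation was -0.72 in sample 2 and -0.43 in sample 3, but the genes were split. Of the 7, 3 were above their own mean and 4 below it in sample 2, and 2 and 5 in sample 3. Some other marker lists had medians with the signs of the ribosomal proteins in samples 2 and 3. They were 0.63 and -0.90 for Flt3 and Itgam, and 0.66 and -1.21 for 3 erythroid genes. For 4 monocyte and macrophage genes they were 0.12 and -0.19, and for 3 B cell genes 0.02 and -1.04. In sample 2, 1 gene each of the erythroid, monocyte and macrophage, and B cell lists was lower. Erythroid and B cell genes had mean signals of at most 128.4, with some values under 30.0. The 5 mature dendritic cell genes were at -0.06 and -0.67, and the 3 T cell genes at -0.08 and 0.00. The part of these measures in the deviations was not tested. In bulk samples, fewer cells of a type and less RNA per cell cannot be told apart.

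**Figure D4:**
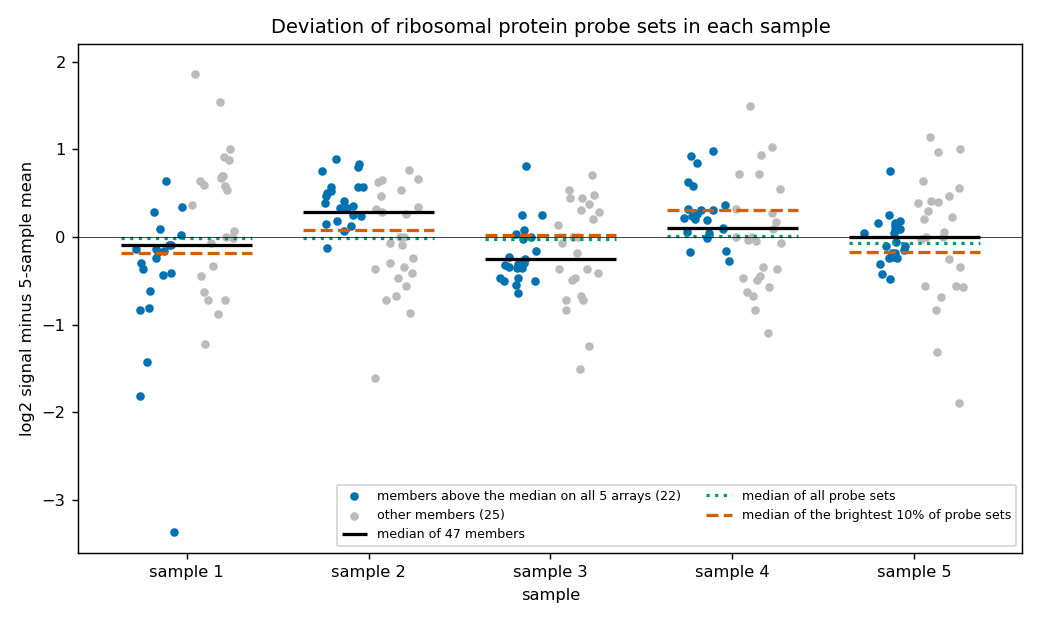
Deviation of each ribosomal protein probe set from its mean over the 5 samples (log2), by sample; blue points are the 22 members above the median on every array, grey points the other 25, and the lines are medians of the 47 members, of all probe sets and of the brightest 10%. The median of the 47 is 0.28 in sample 2 and -0.25 in sample 3, and the lowest point, at -3.37, is Rpl41 in sample 1.

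Bright members differed in how far they varied between samples. The highest sample was under 2 times the lowest in 12 of the 22, from 2 to 3 times in 7 and over 3 times in 3. These 3 were Rpl41 (19.5-fold), Rps28 (98085_f_at, 6.91-fold) and Rps24 (97696_r_at, 4.82-fold). The same counts were not made for other probe sets.

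Rpl7a was the steadiest, at 5499.9, 6967, 4713, 6296 and 6051 in samples 1 to 5 with an SD of log2 signal of 0.21. Rpl13a had 1467, 1792, 1929, 1669 and 1303 with an SD of 0.23. Rpl37a, a zinc finger protein of the large subunit, varied more, at 1734, 4624, 2735, 3099.6 and 1985 with an SD of 0.56. The median SD of the 22 members was 0.38, and 0.35 without sample 1, against 0.44 in the brightest 10% of probe sets. Over all 47 members it was 0.54, against 0.53 over all probe sets.

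No member passed the test for variance between samples, in which limma sets each probe set's variance against a robust prior with a trend on signal. Of the 27 members tested, 0 passed an adjusted p of 0.05, against 0.0% of 6161 probe sets with a mean above the common median. At an unadjusted p under 0.05 there were 318 probe sets, of which 1 was a member, Rpl41 (limma, adjusted p = 0.845). Each probe set is judged there by the spread of the others, so a difference of whole arrays is not tested.

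Among other genes of translation, with 1 probe set per gene, 21 of 27 initiation and elongation factor genes exceeded the median on every array, as did 30 of 35 ribosome biogenesis genes and 47 of 61 mitochondrial ribosomal protein genes, against 44.5% of all named genes. Eef1a1, which delivers aminoacyl tRNA, had 8512, 44578, 24342, 42039 and 25717 in samples 1 to 5. Its order of samples was that of Rps28 (98085_f_at) but for samples 2 and 4. Eef2, the translocase, had 4512, 3074, 1778, 2914 and 3286 and was highest in sample 1. The mRNAs of both carry the pyrimidine tract.

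The deviations of the other lists in samples 2 and 3 are given beside those of the ribosomal proteins. With 1 probe set per gene, the 33 ribosomal protein genes had medians of 0.33 in sample 2 and -0.25 in sample 3. Translation factors had 0.04 and -0.08, ribosome biogenesis genes 0.15 and -0.12, and mitochondrial ribosomal proteins -0.01 and 0.10. The 8 growth control genes had -0.04 and -0.11, and 2 listed genes outside the symbol rule, Rpl7l1 and Fau, 0.37 and -0.48. Fau was under 30.0 in sample 3, and Rps3a1, described below, was not on that list. The difference between the lists was not tested. The nucleolar genes Npm1 and Ncl had means of 7082 ± 1565 and 3744 ± 992 (SD, n = 5). Of 8 S6 kinase and growth control genes, 6 were above the median on every array, and the S6 kinase Rps6kb2 was so on 4, at 359, 172, 129.6, 94.1 and 217.

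A few genes near the symbol rule were outside it. Rps3a1, a small subunit gene whose symbol ends in a number after its letter, had 12989, 19991, 9061, 13029 and 7618 in samples 1 to 5, with sample 2 highest and sample 5 lowest; it was chosen after its values were seen. Rpl7l1, a gene like Rpl7, had 182, 249.9, 190.2, 236 and 247, above the median on every array. Fau, which encodes a ubiquitin-like protein fused to S30, had 54.9, 74.1, 12.5, 18.7 and 92.02, under it on every array.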

How the data were processed

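The authors deposited linear intensity values, 1 per probe set and array; the software, scaling and detection step are not given in the sources used here. Per the labels' protocols, RNA preparation, labelling and hybridization are described in an earlier publication. The 66 control probe sets were left out, each array was scaled to the median 103.4, and signals under 30.0 were raised to it before log2. Genes were named through the supplied platform annotation; 396 probe sets with several symbols and 1193 with none were not named. The number of arrays limits the precision. Identical pairs of columns numbered 0.

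The members, lists and tests were chosen with earlier results of these data known. Genes were named by rule: the 5 highest and 4 lowest probe sets of each subunit, the 5 most and 3 least variable bright members, stalk, disease and paralog genes, genes with discordant probe sets, members with an outlying sample, and the first of each other list. Summaries over members have no test. The variance test (limma 3.58.1, R 4.3.3; Benjamini-Hochberg) ran on all probe sets with a mean above the common median and was tested on simulated data. Other steps used Python 3.11.15. Alternatives are given in the closing section.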

Additional observations from a re-analysis of the deposited data

Results flagged for a closer look

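Among 47 members, 3 had a sample far from the other samples (Dixon, 95%), or 6.38%, against 17.2% of all non-control probe sets; chance marks about 1 group in 20. With no floor, an alternative added after seeing the data, 4 of 47 did (8.51%), against 6.54% of all, and these were Rpl41, Rpl38, Rps27l and Rpl22 (92856_at). Rpl41 was lowest in sample 1, at 1601 against 27881 to 31178 in the other samples. Rpl38 (99626_i_at), which in the mouse is needed to translate certain Hox mRNAs, was highest in sample 1, at 102 against 53.1 to 61.9, all under the array median. Rpl32 (160478_r_at) was highest in sample 5, at 38.7, and in the other samples was under 30.0, to which it was raised; with no floor it had no outlying sample. Members with a suffix other than at held the lowest share of summed signal in sample 1, at 0.747% against 2.01% to 2.50%; Rpl41 is among them. The causes were not tested.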

How the results depend on the processing

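The count of 22 members above the median cannot change with scaling, quantile normalization or the floor, which keep the order within an array. It was 22 to 23 without single samples and 51 of 85 with probe sets of several symbols, an alternative added after seeing the data, as was the restriction to members above the limit on all arrays. The variance test called 0 members in each alternative run. In the values as deposited, where sample 1 keeps its higher level, deviations in samples 1 to 5 were 1.78, -0.23, -0.66, -0.43 and -0.30 and the median SD 1.03. Quantile normalization gave 0.13 in sample 1 and -0.12 in sample 4. Without single samples the deviation was 0.17 to 0.26 in sample 2 and -0.27 to -0.19 in sample 3; in sample 4 it was 0.31 with the filter on mean signal.

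The median level over the array median, 0.29, falls between bright and dim members. It was 0.15 to 0.59 without single samples (highest without sample 1), 5.05 with 1 probe set per gene, 2.82 with plain probe sets, 6.27 with the filter, 4.10 with several symbols and 6.50 over members above the limit, where the median SD was 0.38. The large minus small difference in samples 1 to 5 was -0.95, -0.12, 0.61, 0.28 and -0.39 with 1 probe set per gene, 1.81, 1.87, 3.05, 2.51 and 2.22 with plain probe sets, -0.37, -0.62, -0.40, -0.39 and -0.24 with the filter, 1.51, 2.25, 1.81, 1.71 and 1.28 with several symbols and -0.41, -0.78, -0.72, -0.61 and -0.37 over members above the limit. The plain minus other difference was 1.96 with 1 probe set per gene, 0.21 with the filter, 4.04 with several symbols and -0.89 over members above the limit. These alternatives change which members are counted.

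Of single members, the level of Rpl22 (92856_at) turned to -0.059 with the floor at the 10th percentile and was -0.12 to 0.58 without single samples, that of Rps27l -0.35 to 0.22 and that of Rpl38 (99627_r_at) -0.54 to 0.025. No paired analysis was possible because there is 1 group.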
